A study of Mus musculus with 6 samples.

Results

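The genes described are Cdkn2a, its chromosome 4 neighbours Cdkn2b and Mtap, and the other INK4 genes Cdkn2c and Cdkn2d. They were chosen by symbol, among probe sets that the platform annotation gives exactly 1 gene symbol, which found all 5 genes of 18193 measured. Together they had 8 of the 45037 probe sets tested, 4 of them for Mtap and 1 for each of the others. The set was assembled because the Cdkn2a value was known to be low on some arrays and not on others, so its levels are given as a description.

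The study measured RNA of mouse B-cell leukaemias induced by N-myc, on 1 array per moribund mouse, in 3 Cdh1-deficient and 3 Cdh1-intact leukaemias. Marrow donors were C57BL/6 mice homozygous for a conditional gene-trap allele with a floxed cDNA (Cdh1f/f), Mx1-Cre(+) for the deficient group and Mx1-Cre(-) for the intact group, taken from the same litters. Donors of both groups received pIpC, which induces Cre from the interferon-responsive Mx1 promoter, at 7 to 8 weeks of age, and 5-fluorouracil at 150 mg/kg, with marrow taken 4 weeks after the last pIpC injection and 2 days after 5-fluorouracil. In both groups N-myc was carried by the retroviral vector pMXs-IG, and RNA came from sorted GFP-positive marrow mononuclear cells. Here Cdh1 stands for the activator of the anaphase-promoting complex that mice encode in Fzr1. Mx1-Cre is not restricted to B cells, and the cells in which the allele recombined were not measured.

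INK4 proteins bind the cyclin-dependent kinases CDK4 and CDK6 and keep them from pairing with D cyclins, which leaves the retinoblastoma protein free to hold E2F factors. Cdkn2a encodes p16INK4a and, from another first exon and reading frame, p19ARF, which binds MDM2 and so stabilises p53; high MYC activity is known to raise ARF. Cdkn2b encodes p15INK4b, Cdkn2c p18INK4c and Cdkn2d p19INK4d, while the neighbour Mtap encodes methylthioadenosine phosphorylase of the methionine salvage pathway. In human acute lymphoblastic leukaemia the locus is often deleted, with or without the neighbouring genes. The arrays measured RNA, and DNA copies of the locus were not measured.

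The start regions of the 3 adjacent genes are shown because the results set Cdkn2a beside the genes next to it, and because Cdkn2a has separate starts for its 2 products. Each window runs from 250 bases before to 50 bases after a transcript start, 5′ to 3′ on the gene's strand, from RefSeq on GRCm38.p6. Capitals mark matches, on either strand, to the searched letters CACGTG (bound by MYC and MAX), GGGCGG (bound by SP1), TTTGGCGC and TTTCCCGC (E2F letters) and GGAAGT (ETS factors), and no matches overlapped. The Cdkn2a windows are those of the upstream start, which opens the ARF transcript, at chr4:89294570-89294869 on the minus strand, and of the downstream start, which opens the p16INK4a transcript, at chr4:89282143-89282442 on the minus strand. Cdkn2b lies at chr4:89310983-89311282 on the minus strand and Mtap at chr4:89137120-89137419 on the plus strand.
Cdkn2a upstream start: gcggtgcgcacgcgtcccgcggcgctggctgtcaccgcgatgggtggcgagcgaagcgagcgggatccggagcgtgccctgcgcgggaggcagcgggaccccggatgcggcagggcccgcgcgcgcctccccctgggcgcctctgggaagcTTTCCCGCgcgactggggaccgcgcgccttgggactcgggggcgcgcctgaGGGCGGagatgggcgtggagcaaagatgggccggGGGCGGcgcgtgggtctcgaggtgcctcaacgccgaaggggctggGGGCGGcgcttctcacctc
Cdkn2a downstream start: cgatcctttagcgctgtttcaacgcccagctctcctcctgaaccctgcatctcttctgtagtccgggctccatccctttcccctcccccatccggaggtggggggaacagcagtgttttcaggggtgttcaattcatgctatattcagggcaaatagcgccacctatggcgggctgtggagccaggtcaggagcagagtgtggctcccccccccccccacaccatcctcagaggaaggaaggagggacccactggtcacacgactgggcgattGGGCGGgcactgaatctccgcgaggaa
Cdkn2b start: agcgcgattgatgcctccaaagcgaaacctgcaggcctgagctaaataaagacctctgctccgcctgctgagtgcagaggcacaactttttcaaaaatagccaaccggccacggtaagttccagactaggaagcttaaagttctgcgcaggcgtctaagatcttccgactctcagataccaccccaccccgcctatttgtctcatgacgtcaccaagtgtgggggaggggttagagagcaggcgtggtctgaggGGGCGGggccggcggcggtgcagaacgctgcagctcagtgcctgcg
Mtap start: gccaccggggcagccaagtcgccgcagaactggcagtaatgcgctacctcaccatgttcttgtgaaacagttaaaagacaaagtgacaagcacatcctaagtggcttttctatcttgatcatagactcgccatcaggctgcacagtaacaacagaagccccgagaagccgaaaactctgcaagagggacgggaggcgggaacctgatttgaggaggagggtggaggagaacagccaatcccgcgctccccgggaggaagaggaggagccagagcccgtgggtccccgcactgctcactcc

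Of these windows the upstream Cdkn2a start held 3 GGGCGG matches and 1 TTTCCCGC match, and 45 CpG dinucleotides, more than 98.1% of the 32851 windows of the same length. The downstream Cdkn2a start, 12427 bases away, held 1 GGGCGG match and 12 CpG dinucleotides, and the Cdkn2b start 1 GGGCGG match and 18 CpG dinucleotides. The Mtap window held 14 CpG dinucleotides and no match. Over all windows GGGCGG was found in 35.7%, TTTCCCGC in 1.07%, TTTGGCGC in 0.514%, CACGTG in 7.15% and GGAAGT in 23.8%. The Cdkn2a probe set carries the suffix for transcripts of the same gene that share its probes, and the files do not say which of the 2 starts it reads, so ARF and p16INK4a transcripts cannot be told apart in these values.

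Some arrays stood apart from their group, and this bears on the values that follow. The array labelled Cdh1-intact 2 had a mean level of 4.70 over 11 measured B-lineage markers, against 7.47 to 7.95 on the Cdh1-deficient arrays and 7.79 and 8.50 on the other Cdh1-intact arrays. Over 11 T and NK cell markers its mean level was 8.86, against 5.28 to 5.37 on the Cdh1-deficient arrays and 5.55 and 6.78 on Cdh1-intact arrays 1 and 3. Cdh1-intact array 3 also held T-lineage transcripts, with Cd3d at 8.69, Cd3g at 7.95, Gzma at 8.33 and Lat at 8.63. On the Cdh1-deficient arrays these 4 genes reached at most 5.41, 3.52, 4.36 and 6.57. Cd8a, Klrd1 and Prf1 were not raised on Cdh1-intact array 3, nor on Cdh1-intact array 2, where they read 5.27, 2.86 and 5.25. Cd4 varied little, from 5.41 to 5.64 over the 6 arrays, and was highest on Cdh1-intact array 2. Of the 11 B-lineage markers 9 were lowest, and of the 11 T and NK markers 8 were highest, on the array labelled Cdh1-intact 2. The content of Cdh1-intact array 2 thus goes against its B-cell label. The mean of Cdh1-intact array 2 over 11 neutrophil and myeloid markers was also the lowest, 5.95. It was 8.69 to 10.56 on the Cdh1-deficient arrays and 9.41 and 8.61 on the other Cdh1-intact arrays. Cdh1-intact array 1 had the highest mean level of 8 macrophage and monocyte markers, with 7 of the 8 markers highest there. That mean was 7.31, against 5.67 to 5.99 on the Cdh1-deficient arrays and 4.89 and 5.53 on the other Cdh1-intact arrays. The same array had the highest mean of 5 erythroid markers, with only 3 of the 5 highest there. That mean was 6.75, against 5.01 to 5.73 on the Cdh1-deficient arrays and 4.85 and 5.18 on the other Cdh1-intact arrays. Alas2 read 9.31 on Cdh1-intact array 1, against 4.82 to 5.61 on every other array. Epor and Hba-a1 were highest on Cdh1-intact arrays 2 and 3, but both varied little. Epor lay between 5.56 and 6.21 on the 6 arrays, and Hba-a1 between 3.27 and 3.61, a low level on every array. Fzr1 lay at 8.10, 7.73 and 8.22 on the Cdh1-deficient arrays and at 8.92, 8.04 and 8.92 on the Cdh1-intact arrays, a difference of -0.61 (SE 0.28, adjusted p = 0.862 by limma) with overlap at Cdh1-intact array 2. Where its probes sit relative to the trapped part was not looked up, so Fzr1 does not check the labels here. Mycn, the gene of N-myc, lay by the brightest of its 3 probe sets at 13.49, 13.68 and 13.70 on the Cdh1-deficient arrays and at 13.41, 13.13 and 13.51 on the Cdh1-intact arrays. Probe set 1425922_a_at read 8.18, 7.01 and 8.51 on the Cdh1-deficient arrays and 7.27, 6.31 and 7.43 on the Cdh1-intact arrays. Its difference was 0.90 (SE 0.48), against 0.27 (SE 0.14) for the brightest. The third stayed between 2.84 and 3.23. All levels are log2 values.

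Cdkn2a was present at a high level on all 3 Cdh1-deficient arrays and on 1 Cdh1-intact array, and was low on the other Cdh1-intact arrays. Its single probe set, 1450140_a_at, read 10.71, 10.16 and 11.11 on Cdh1-deficient arrays 1, 2 and 3, and 3.38, 5.79 and 10.73 on Cdh1-intact arrays 1, 2 and 3. The value of Cdh1-intact array 3 fell between those of the Cdh1-deficient arrays, and the groups overlapped through it alone. On Cdh1-intact array 1 only 14.6% of all probe sets had a lower value, and on Cdh1-intact array 2 59.3%, while on the remaining arrays 93.3% to 96.5% did. The mean of the Cdh1-deficient arrays was 7.28 above Cdh1-intact array 1 and 4.87 above Cdh1-intact array 2, and its difference from Cdh1-intact array 3 was -0.06. In a bulk sample, fewer cells with the transcript and less of it per cell cannot be told apart.

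**Figure D1:**
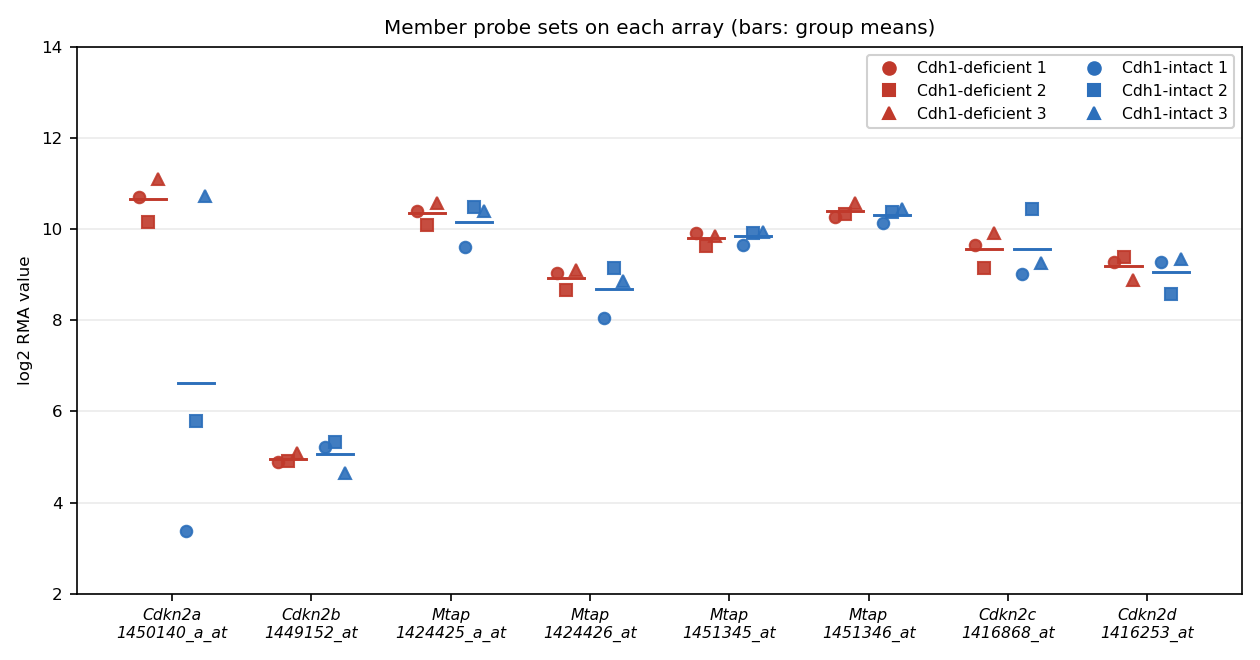
Log2 level of the 8 member probe sets (y axis) on each array, Cdh1-deficient in red left of Cdh1-intact in blue, with marker shape for the array number and a bar for the group mean. Cdkn2a spans 3.38 to 11.11, while the values of each other probe set span 0.32 to 1.43.

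The Cdkn2a gap was among the widest on the arrays. Its range over the 6 arrays, 7.73, ranked 31 of 45037 probe sets. The difference between the lowest Cdh1-deficient array and Cdh1-intact array 1, 6.78, was the largest of all 45037 probe sets on that array. The next 3 were probe sets of Xist, the RNA of the inactive X chromosome, at 6.16, 6.13 and 5.83. These Xist probe sets read 3.43, 3.72 and 6.75 on Cdh1-intact array 1, against 9.59 to 13.17 on every other array. That array therefore stood apart in Xist too, and the cause was not tested. Against Cdh1-intact array 2 the same gap for Cdkn2a was 4.37 and ranked 83, on the array whose lineage markers differed. These ranks describe a value by which the gene was chosen and are not a test. Mean levels over the macrophage, erythroid, B-lineage and T-cell markers are given above for both arrays, and their part in the Cdkn2a levels was not tested.

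**Figure D2:**
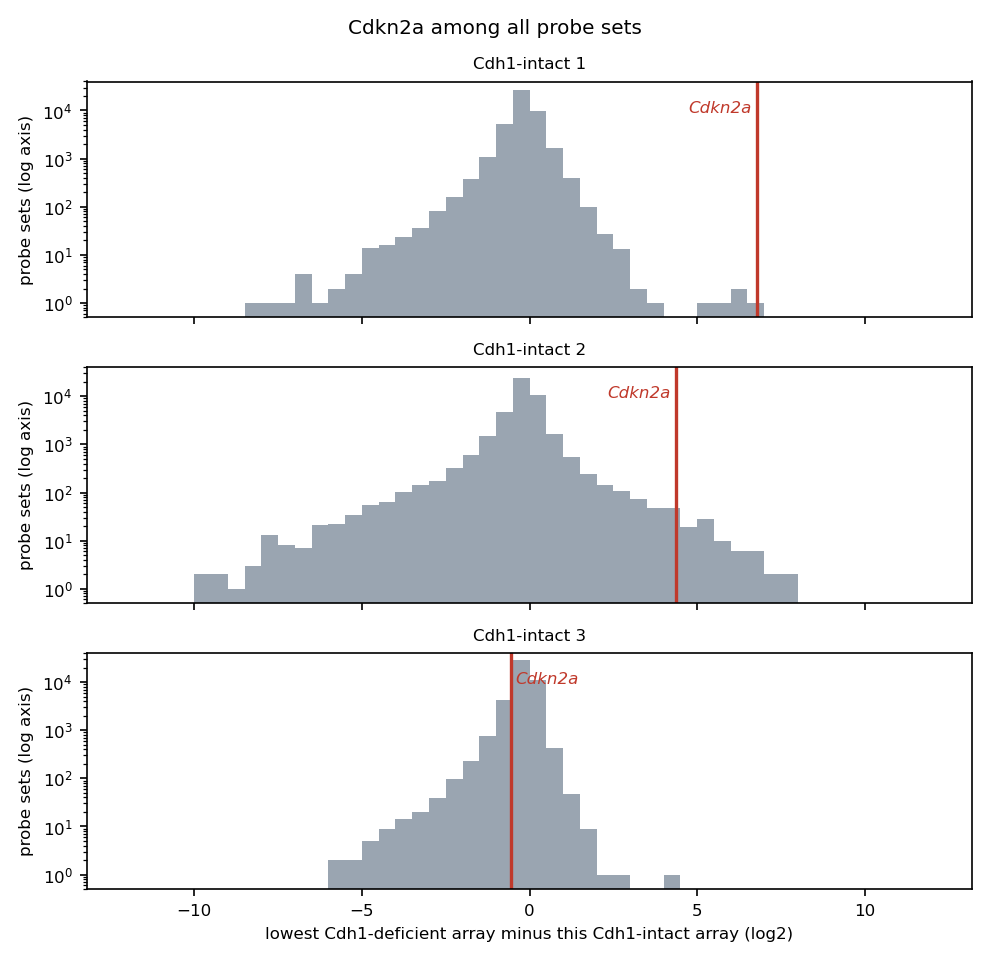
Number of probe sets (log axis) by the lowest Cdh1-deficient value minus the value on each Cdh1-intact array (x axis, log2), 1 panel per Cdh1-intact array, with a red line at Cdkn2a. Cdkn2a lies at 6.78, the far right end, for Cdh1-intact array 1, at 4.37 within the right tail for array 2 and at -0.56 within the bulk for array 3.

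As a group difference, Cdkn2a was 4.03 (SE 1.78) in limma, with means of 10.66 ± 0.48 in Cdh1-deficient and 6.63 ± 3.75 in Cdh1-intact cells (SD, n = 3 each). The spread within the Cdh1-intact group was thus nearly as large as the difference. The difference was 2.40 when Cdh1-intact array 1 was left out, 3.61 when array 2 was and 6.08 when array 3 was. With limma 0 of 45037 probe sets (0%) had an adjusted p under 0.05, the lowest being 0.148 (1 probe set passed with trend and robust estimation, of no member), and 2534 (5.63%) had an unadjusted p under 0.05. Because the genes were picked with their levels known, no p is given for them.

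Of the neighbours, Mtap showed no gap like that of Cdkn2a, and Cdkn2b was at a high level on no array and so could not show one. Cdkn2b, the next measured gene on one side, lay at 4.90, 4.91 and 5.08 on the Cdh1-deficient arrays and at 5.23, 5.32 and 4.65 on the Cdh1-intact arrays. The 6 values overlapped between the groups, and those on Cdh1-intact arrays 1 and 2, where Cdkn2a was low, were the highest of the 6. Between 42.8% and 53.3% of all probe sets had a lower value on the same array. Its group difference was -0.10 (SE 0.20), and -0.31 to 0.02 with each array left out in turn.

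Mtap, the next measured gene on the other side, was present at a high level on every array by all 4 probe sets, each above 81.1% or more of all probe sets on the same array. The probe set of highest mean, 1451346_at, read 10.26, 10.34 and 10.57 on the Cdh1-deficient arrays and 10.13, 10.37 and 10.44 on the Cdh1-intact arrays, a difference of 0.08 (SE 0.14). Cdh1-intact array 1 had the lowest Mtap value of the 6 arrays in 3 of the 4 probe sets, although the shortfall depended on the probe set. On 1424426_at the levels were 9.04, 8.67 and 9.11 on the Cdh1-deficient arrays and 8.06, 9.15 and 8.87 on the Cdh1-intact arrays, and the deviation of Cdh1-intact array 1 from the median of the other 5 arrays was -0.98. Probe set 1424425_a_at read 10.39, 10.09 and 10.58 on the Cdh1-deficient arrays and 9.60, 10.49 and 10.39 on the Cdh1-intact arrays. The remaining probe set, 1451345_at, read 9.92, 9.63 and 9.85 on the Cdh1-deficient arrays and 9.65, 9.93 and 9.94 on the Cdh1-intact arrays, and was lowest on Cdh1-deficient array 2. In all 4 probe sets the groups overlapped. The deviation of Cdh1-intact array 1 was -0.79 on 1424425_a_at, -0.27 on 1451345_at and -0.25 on 1451346_at, against -7.34 for Cdkn2a. On Cdh1-intact array 2 the 4 Mtap deviations were 0.03 to 0.28, against -4.92 for Cdkn2a. The differences of the other 3 Mtap probe sets ranged from -0.04 (SE 0.13) to 0.24 (SE 0.30).

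The wider flank of Cdkn2a was described by the nearest 15 measured genes on each side in RefSeq gene order. Of these 30 genes, 10 reached the level of the median gene, and 9 of the other 20 were interferon genes, with values no higher than 5.44 on any array. Among those 10 the median deviation from the other arrays was -0.08, 0.35 and 0.48 on Cdh1-deficient arrays 1, 2 and 3, and -0.56, -0.08 and -0.07 on Cdh1-intact arrays 1, 2 and 3. Over all genes that median was between -0.02 and 0.03 on each array. Of the 10 genes, 6, 2 and 1 deviated below 0 on Cdh1-deficient arrays 1, 2 and 3, and 7 did on each Cdh1-intact array. On one side the nearest 3 measured genes were Mtap, Ifna1 and Ifna4, and on the other Cdkn2b, Dmrta1 and Zfp352; all but Mtap stayed between 2.65 and 5.32 on every array. On Cdh1-intact array 1, 5 flank genes deviated by over 1, namely Tusc1 (-1.54), Ift74 (-1.34), Mllt3 (-1.16), Eqtn (1.10) and Jun (5.19), compared with 2.88% of all genes below and 1.51% above that size on the same array. The deviation of Eqtn rests on 1 of its 3 probe sets, as the others gave 0.47 and -0.28, and no value of the 3 exceeded 4.74. On Cdh1-intact array 2, 3 flank genes lay below -1, where 5.27% of all genes did.

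Tusc1, a candidate tumour suppressor, read 7.23, 6.78 and 7.71 on the Cdh1-deficient arrays and 5.69, 4.22 and 7.30 on the Cdh1-intact arrays. Ift74, a subunit of the intraflagellar transport complex of cilia, read 7.34, 7.70 and 8.00 on the Cdh1-deficient arrays and 6.36, 5.58 and 7.73 on the Cdh1-intact arrays. Both were low on Cdh1-intact arrays 1 and 2, as Cdkn2a was, but lowest on array 2. Their differences were 1.50 (SE 0.76) for Tusc1 and 1.12 (SE 0.54) for Ift74, with an adjusted p of 0.862 each by limma, and the groups overlapped through Cdh1-intact array 3. Caap1 and Plaa lie between them in gene order. Caap1 lay between 8.76 and 9.12 on the Cdh1-deficient arrays and between 8.21 and 8.60 on the Cdh1-intact arrays, without overlap of the groups. Its difference was 0.53 (SE 0.15, adjusted p = 0.862 by limma). The flank genes Focad, Klhl9 and Junos also had groups that did not overlap, as did 11.7% of all genes. Plaa read 9.77, 10.33 and 10.25 on the Cdh1-deficient arrays and 9.82, 9.80 and 9.76 on the Cdh1-intact arrays, which differed from each other by less than the Cdh1-deficient ones. Mllt3, a subunit of the super elongation complex, was lowest on Cdh1-intact array 1 with all 3 of its probe sets. Jun, the gene of an AP-1 factor, read 5.61, 10.06 and 4.76 on the Cdh1-deficient arrays and 11.63, 9.03 and 6.44 on the Cdh1-intact arrays, so high values occurred in both groups.

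**Figure D3:**
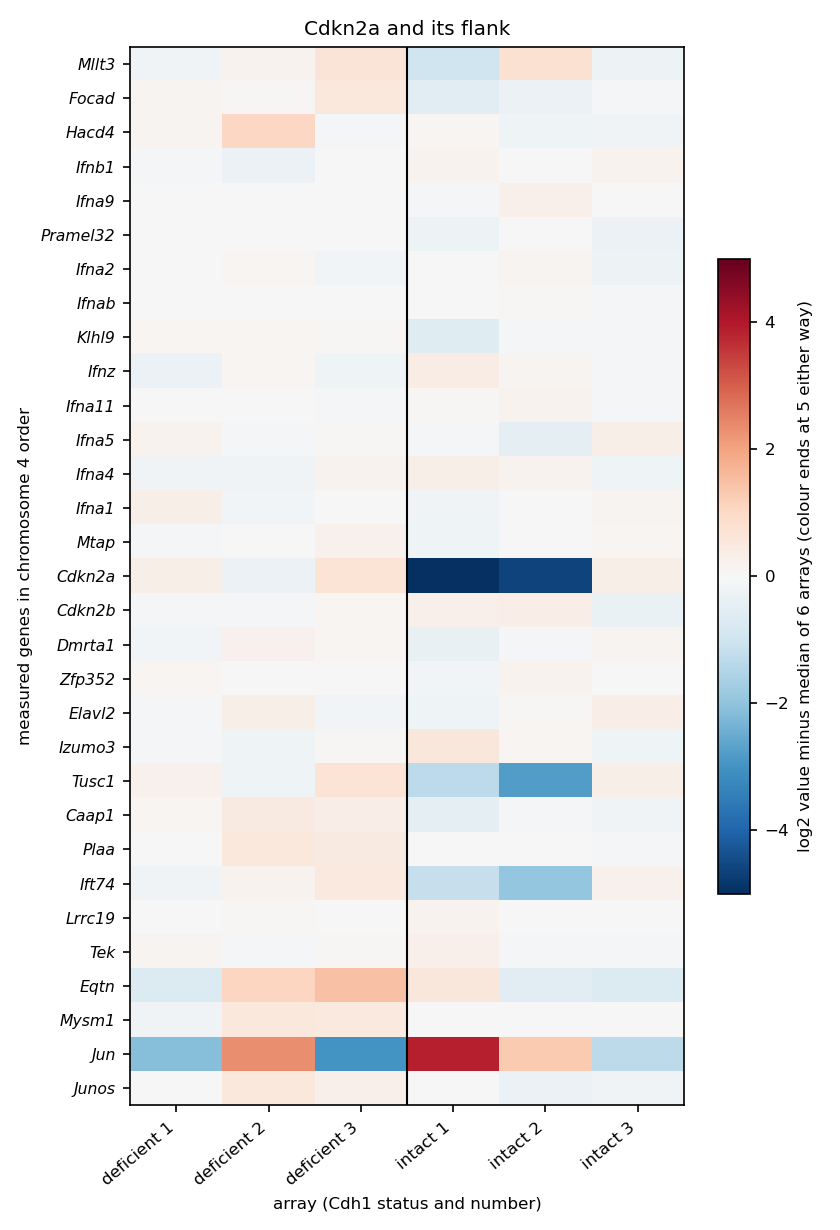
Cdkn2a and the 15 measured genes on each side in chromosome 4 order (rows), by array (columns, Cdh1-deficient left of Cdh1-intact); colour is the log2 value minus the gene's median over the 6 arrays, and ends at 5 in either direction. The deep blue cells of Cdkn2a on Cdh1-intact arrays 1 and 2 are not continued in the adjacent row of Mtap, and the row of Cdkn2b, at 4.65 to 5.32 on every array, could not show such a gap.

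Cdkn2c and Cdkn2d, which lie away from Cdkn2a, on chromosome 4 and on chromosome 9, showed no gap of this kind. Cdkn2c read 9.66, 9.14 and 9.91 on the Cdh1-deficient arrays and 9.01, 10.45 and 9.25 on the Cdh1-intact arrays, with a group difference of 0.00 (SE 0.42). Cdkn2d read 9.28, 9.38 and 8.89 on the Cdh1-deficient arrays and 9.27, 8.57 and 9.35 on the Cdh1-intact arrays, a difference of 0.12 (SE 0.25). Cdh1-intact array 2 held the highest Cdkn2c and the lowest Cdkn2d value, and Cdh1-intact array 1 the lowest Cdkn2c value. Without Cdh1-intact array 2 the differences were 0.44 for Cdkn2c and -0.13 for Cdkn2d. In 0 of the 8 member probe sets were the groups free of overlap, where 11.7% of all probe sets, and 11.7% of genes with 1 probe set each, had groups that did not overlap.

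Among the proteins that INK4 inhibitors act on or through, 5 of 8 genes were higher and 3 lower in Cdh1-deficient cells, with a median difference of 0.03 beside 0.0034 over all genes. None of the 8 passed the limma threshold, and 0 had an unadjusted p under 0.05. The median was -0.28 with Cdh1-intact array 1 left out and 0.27 with array 2 left out. The kinase gene Cdk4 read 11.62, 10.94 and 11.39 on the Cdh1-deficient arrays and 10.85, 11.40 and 11.58 on the Cdh1-intact arrays. Cdk6 read 10.35, 10.86 and 10.72 on the Cdh1-deficient arrays and 8.11, 11.07 and 10.09 on the Cdh1-intact arrays, a difference of 0.88 (SE 0.73, adjusted p = 0.864 by limma). Its low value fell on Cdh1-intact array 1, where Cdkn2a was lowest, and the other bright probe set of the gene read 8.16 there, against 10.32 to 10.76 on the Cdh1-deficient arrays and 10.99 and 10.07 on the other Cdh1-intact arrays.

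The D cyclin genes, whose products activate CDK4 and CDK6, differed widely among the Cdh1-intact arrays. Ccnd1 lay at 4.29 on Cdh1-intact array 2, against 10.33 to 11.29 on the Cdh1-deficient arrays and 11.02 and 10.91 on Cdh1-intact arrays 1 and 3. Ccnd2 lay at 7.67, 8.27 and 7.71 on the Cdh1-deficient arrays, and at 5.93, 11.44 and 9.04 on Cdh1-intact arrays 1, 2 and 3. Thus Cdh1-intact array 2 had the lowest Ccnd1 and the highest Ccnd2 value, and Cdh1-intact array 1 the lowest Ccnd2 value, the extremes of Ccnd2 holding in all 7 of its probe sets. The array with high Ccnd2 is the one with high T and NK markers, whose part in this was not tested. Ccnd3 stayed within 8.60 to 8.89 on the Cdh1-deficient arrays and 8.23 to 8.90 on the Cdh1-intact arrays. Rb1, which encodes the retinoblastoma protein, differed by -0.27 (SE 0.43) and its relative Rbl2 by -0.35 (SE 0.27), with adjusted p of 0.922 and 0.862 by limma.

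**Figure D4:**
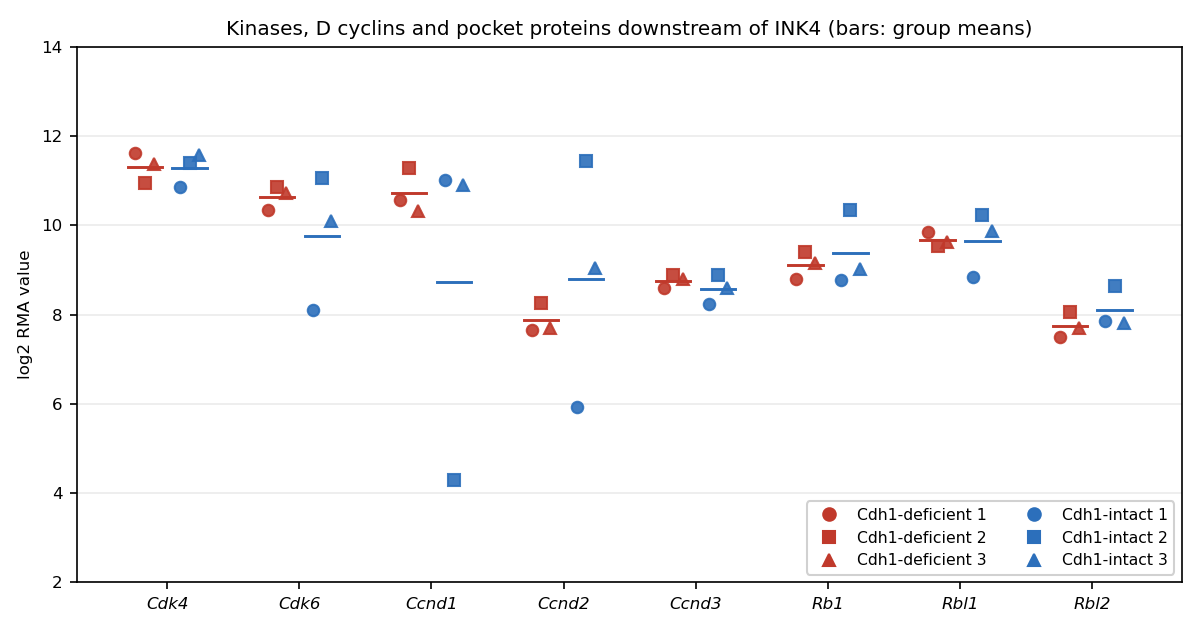
Log2 level (y axis) of the kinases, D cyclins and pocket proteins downstream of INK4 inhibitors on each array, Cdh1-deficient in red left of Cdh1-intact in blue, with bars for group means. Cdh1-intact array 2 stands apart in Ccnd1 (4.29) and Ccnd2 (11.44), and Cdh1-intact array 1 in Cdk6 (8.11) and Ccnd2 (5.93).

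Of 19 measured E2F-driven S phase genes 13 were higher and 6 lower in Cdh1-deficient cells, with a median difference of 0.11. None passed, and only Ccna2 had an unadjusted p under 0.05. Cdh1-intact array 1 had the lowest value of 12 of the 19, where any array of the 6 was lowest for 8.68% to 24.0% of all genes, and its list mean was 10.14, against 10.39 to 10.62 on the Cdh1-deficient arrays and 10.51 and 10.63 on the other Cdh1-intact arrays. The median difference of the list was -0.03 with that array left out, 0.16 with array 2 left out and 0.21 with array 3 left out, all Cdh1-intact. Ccna2, the gene of cyclin A2, differed by 0.63 (SE 0.20), with 11.83, 12.24 and 12.23 on the Cdh1-deficient arrays above 11.54, 11.12 and 11.73 on the Cdh1-intact arrays (adjusted p = 0.862 by limma). E2f1 differed by 0.28 (SE 0.15) and the helicase subunit gene Mcm7 by 0.21 (SE 0.18).

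On the ARF side of the locus, 13 of 17 genes of the MDM2 and p53 arm were lower and 4 higher in Cdh1-deficient cells, with a median difference of -0.23. None passed, and only Btg2 had an unadjusted p under 0.05. The median was -0.21 with Cdh1-intact array 1 left out, -0.13 with array 2 left out and -0.44 with array 3 left out, and -0.39 with Cdh1-deficient array 2 left out. List means were 7.46, 7.86 and 7.66 on the Cdh1-deficient arrays and 8.22, 8.15 and 7.62 on the Cdh1-intact arrays. The 2 arrays with low Cdkn2a thus had the highest means, and a link with Cdkn2a was not tested. Cdh1-intact array 1 had the highest value of 4 of the 17 genes, where it did for 20.4% of all genes. Its largest deviations from the median of the other arrays were Plk2 (2.65) and Pmaip1 (2.56). Cdh1-intact array 2, with high T and NK markers, had the highest value of 9, where it did for 21.7% of all genes. Its largest deviation was Perp (3.44). Mdm2, the ubiquitin ligase of p53, read 8.79, 9.01 and 8.67 on the Cdh1-deficient arrays and 8.84, 9.19 and 8.91 on the Cdh1-intact arrays, a difference of -0.15 (SE 0.15). Cdkn1a, the p53-inducible CIP/KIP inhibitor, differed by -0.55 (SE 0.23) and the antiproliferative gene Btg2 by -1.02 (SE 0.39, or -1.42 with the mean of both probe sets), with adjusted p of 0.862 each by limma. Phlda3, a p53-inducible inhibitor of AKT, and the receptor gene Eda2r differed by -0.40 (SE 0.21) and -0.22 (SE 0.15). The other CIP/KIP genes, which inhibit cyclin-dependent kinases more broadly, were higher in Cdh1-deficient cells, Cdkn1b by 0.33 (SE 0.32) and Cdkn1c by 0.57 (SE 0.66), with adjusted p of 0.876 and 0.892 by limma. Cdkn1c read 7.19, 7.08 and 7.19 on the Cdh1-deficient arrays and 8.15, 5.52 and 6.08 on the Cdh1-intact arrays, so the Cdh1-intact values lay on both sides of the Cdh1-deficient ones. The median of the 3 CIP/KIP genes, 0.33, was -0.02 without Cdh1-intact array 2 and 0.48 without either Cdh1-intact array 1 or Cdh1-deficient array 2.

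Cdkn2a is held down by Polycomb complexes, which modify histones, and by several other repressors. Of 18 measured repressors 7 were higher and 11 lower in Cdh1-deficient cells, with a median difference of -0.07, and between -0.15 (Cdh1-intact array 1 left out) and 0.04 (array 2 left out) over single omissions. None passed, and only Kdm2b had an unadjusted p under 0.05. The Polycomb genes Bmi1 and Ezh2 differed by -0.29 (SE 0.28) and 0.18 (SE 0.30). Kdm2b, a histone demethylase gene, lay at 11.40, 11.35 and 11.14 on the Cdh1-deficient arrays and at 10.88, 10.48 and 10.86 on the Cdh1-intact arrays, a difference of 0.55 (SE 0.15, adjusted p = 0.862 by limma). Rnf2 and Pcgf2, also Polycomb genes, differed by -0.37 (SE 0.17) and -0.26 (SE 0.13).

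Of 9 activators of Cdkn2a 3 were higher and 6 lower, with a median difference of -0.07, or -0.40 with Cdh1-intact array 1 left out and 0.02 with array 2 left out. None passed, and only Ets2 had an unadjusted p under 0.05. Ets2, whose product activates p16INK4a, lay at 7.71, 7.94 and 6.66 on the Cdh1-deficient arrays and at 9.06, 10.30 and 8.51 on the Cdh1-intact arrays, a difference of -1.85 (SE 0.55, adjusted p = 0.862 by limma) that was -0.97 when its 3 probe sets were averaged. The factor gene Runx1 differed by -0.54 (SE 0.30).

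Around Mtap, 7 of 9 measured genes of methionine salvage and of MTAP's partners were higher and 2 lower in Cdh1-deficient cells, with a median difference of 0.06. Left out in turn, single arrays gave medians of 0.02 to 0.18, with 0.18 when Cdh1-intact array 3 was left out, 0.14 when Cdh1-deficient array 2 was and 0.02 when Cdh1-deficient array 3 was. None passed, and 3 had an unadjusted p under 0.05, where 5.63% of all probe sets did. Wdr77, the partner subunit of the PRMT5 methyltransferase, lay at 11.15, 11.05 and 11.03 on the Cdh1-deficient arrays and at 10.29, 10.21 and 10.70 on the Cdh1-intact arrays, a difference of 0.68 (SE 0.15). The salvage enzyme genes Adi1 and Apip differed by 0.40 (SE 0.11) and -0.59 (SE 0.18). These 3 were named for the smallest unadjusted p of the list, and their adjusted p was 0.862 each by limma. They were also the genes of the 9 whose groups did not overlap (33.3%, where 11.7% of all genes did). With 3 arrays per group a small p and no overlap go together, so the second adds no support to the first.

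**Figure D5:**
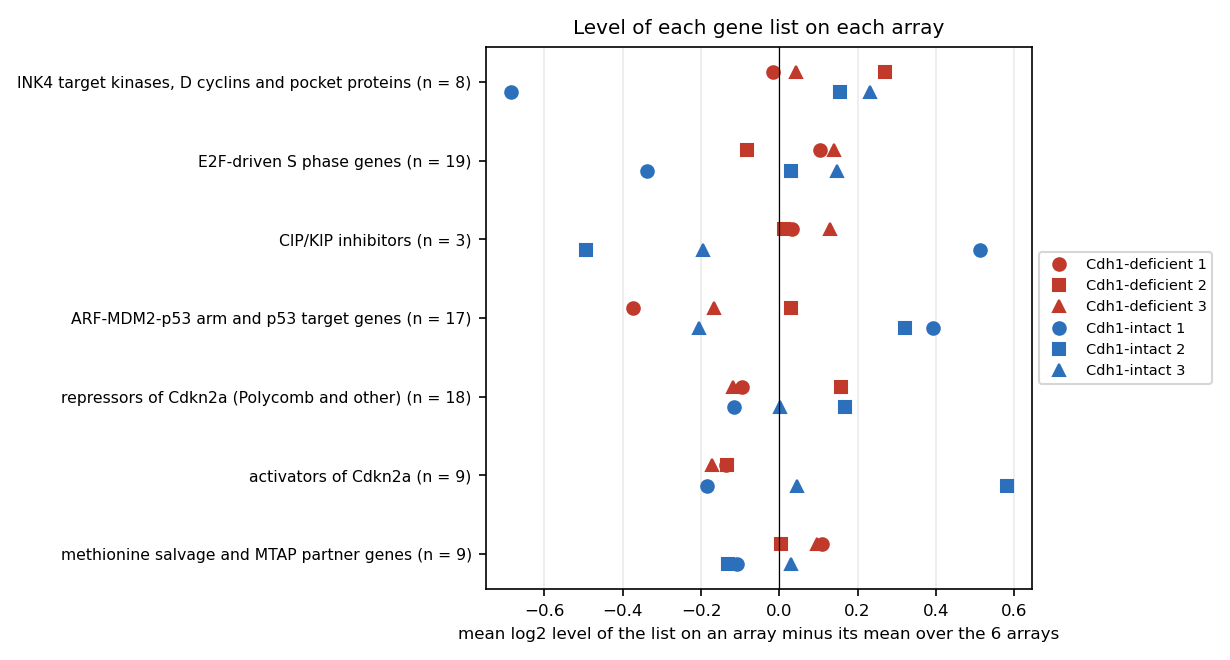
Mean log2 level of each gene list on an array minus its mean over the 6 arrays (x axis), Cdh1-deficient in red above Cdh1-intact in blue, with n the number of measured genes. Cdh1-intact array 1 lies lowest for the INK4 targets and the S phase genes and highest for the CIP/KIP and p53 lists. In the first 2 lists 6 of 8 and 12 of 19 genes were lowest there. In the CIP/KIP list only Cdkn1c, 1 of 3, was highest there, and in the p53 list 4 of 17.

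The genes whose pattern over the 6 arrays was most like that of Cdkn2a, by Pearson's r among 7897 probe sets with a range of at least 1, were Eid2 (0.989), Klhdc2 (0.988), Wdr89 (0.987), Knop1 (0.986) and Sec23a (0.985). They lie on chromosomes 7 and 12, and their ranges were 1.02 to 2.02, against 7.73 for Cdkn2a. Eid2 read 8.11, 7.99 and 8.25 on the Cdh1-deficient arrays and 6.41, 6.93 and 8.43 on the Cdh1-intact arrays. The likeness rests on 6 points that share 2 low arrays, and the other probe sets of Klhdc2 and Knop1 gave r between -0.92 and 0.91.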

How the data were processed

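Per the submitters' processing notes, the authors made the deposited values with RMA (no version is stated), and they are log2 levels. RMA gives all arrays nearly the same distribution, so a shift in total RNA is not visible, and the number of arrays limits the precision. Replicates are separate mice, per the labels. Of 45101 probe sets 64 controls were left out. The platform annotation gave 1 symbol to 34945 probe sets and several to 932, and 9160 were not listed there and are unnamed here. RefSeq tables of GRCm38.p6 supplied gene order and start windows.

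The 3 Cdh1-deficient and 3 Cdh1-intact arrays were compared in 1 model per probe set (limma 3.58.1 under R 4.3.3, lmFit, then eBayes with no trend, two-sided tests, Benjamini-Hochberg over 45037 probe sets, threshold 0.05), which was also tested on simulated data. Differences are Cdh1-deficient minus Cdh1-intact, with the moderated SE. Gene lists used the probe set of highest mean per gene and are described by counts and medians. Members and lists were chosen with earlier results of these data known. Named genes were the members, Fzr1, the nearest 3 flank genes on each side and those deviating by over 1. Also named were 8 fixed genes, up to 3 per list by unadjusted p, and the 5 most alike. Ccnd2, Caap1, Plaa, Focad, Klhl9, Junos, Xist, Plk2, Pmaip1, Perp and the named cell type markers were added after their values were seen. Alternatives changed the normalization, the filter, the variance model, the probe set rule, the replicate block and the arrays included.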

Additional observations from a re-analysis of the deposited data

How the results depend on the processing

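Against 0 probe sets past the threshold with limma, the count was 1 with trend and robust estimation, namely 1457769_at, which is unnamed here, and the cause was not tested. The count was 0 with quantile normalization, median centring, the lowest quartile of levels left out, array weights, 1 probe set or 1 mean per gene, an adjusted p under 0.10, and with each array left out in turn (0 to 0, with 1453 to 4200 probe sets at an unadjusted p under 0.05). With the replicate block it was 0, with 2401 at an unadjusted p under 0.05 against 2534 without the block. Deviations of same-numbered arrays from their group means correlated at -0.13, -0.00 and 0.02, and no array correlated best with its own number. The labels do not say that equal numbers pair mice. With 3 arrays per group these correlations cannot show whether same-numbered mice were related.

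The Cdkn2a difference kept its sign in 12 of 12 alternatives, from 2.40 to 6.08. Because the gene was chosen by its levels on these arrays, the kept sign is a description and adds no support. Some alternatives, such as the replicate block (4.03), leave a difference of group means as it is. Differences of the other 7 member probe sets ranged from -0.31 to 0.47, and each changed sign under at least 1 alternative. With 3 arrays per group an exact permutation test cannot reach a two-sided p below 0.1. RMA levels near the low end of the scale do not separate little RNA from none.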
